A study of Mus musculus with 9 samples.

Results

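Desmosomes are adhesive junctions in which the cadherins of neighbouring cells (desmogleins and desmocollins) bind each other outside the cell and, inside it, armadillo proteins (plakoglobin and plakophilins), which in turn hold desmoplakin, a plakin that anchors intermediate filaments. They are best known from epithelia and heart muscle, while blood cells generally form none. The genes described are Dsp (desmoplakin), Jup (plakoglobin), Pkp1, Pkp2 and Pkp4 (plakophilin family), Dsg2 and Dsc2 (cadherins) and Perp, a desmosomal membrane protein and target of p53 and p63. They are 8 of the 12394 genes named on the array, with 20 of its 22690 probe sets, and every probe set annotated to one of them alone was taken. The 8 genes were selected on the earlier results of these same arrays: Dsp was chosen by its signal in L-GMP over GMP and the others as genes of its junction. Their differences are therefore a description, given without p-values.

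The samples were 9 Affymetrix arrays of mouse hematopoietic cells in 3 groups of 3, from a study of the MLL-AF9 fusion oncogene in committed progenitors. GMP are normal granulocyte-macrophage progenitors sorted from bone marrow. L-GMP are the cells of similar phenotype sorted from the marrow of leukemic mice, and L-GMP-derived cells were grown from L-GMP in culture. RNA came from a small number of sorted cells. The sources used here do not give the strain, the age, the MLL-AF9 vector, the days in culture or any pooling of animals. No label states that arrays of a group are from different mice or cultures, and p-values then reflect only array-to-array spread, possibly technical. The titles of the L-GMP-derived arrays are a code, with L-GMP given as their source, and they were placed by elimination from the design text.

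Values are signals on a linear scale, and the median signal of an array ran from 157 to 168. For differences, signals under a floor of 62.4 were set to it and log2 was taken, so folds of dim genes are understated, and a fold against a group whose 3 arrays are all at the floor is written as "at least". Probe sets above 111 on at least 3 arrays were compared in limma. Of the 20 desmosome probe sets 9 passed this filter, for 7 of the 8 genes, and 11 did not, with signals between -6.08 and 104. Levels are not comparable between probe sets. In bulk RNA, fewer cells of a type and less RNA per cell cannot be told apart. Of 8 markers of GMP, all 8 passed the filter, and their summed signal was 39059 to 40465 in GMP, 29615 to 35812 in L-GMP and 23308 to 28187 in L-GMP-derived cells. Ctsg, Prtn3 and Elane, genes of neutrophil granule proteases, averaged between 6101 and 8921 in every group. The progenitor markers Kit and Cd34 averaged 93.9 and 36.4 in L-GMP-derived cells, against 816 and 568 in GMP. Mpo (myeloperoxidase) and Csf1r (a growth factor receptor) averaged 1442 ± 1853 and 535 ± 247 there (SD, n = 3), against 9366 and 5767 in GMP. The L-GMP-derived arrays thus differed widely in Mpo. In L-GMP against GMP 1 of the 8 was past an adjusted p of 0.05 upward (Fcgr3) and 2 downward (Ctsg and Cd34). Of all 8965 genes tested 13.1% and 12.8% were. Against GMP 0 were upward and 4 downward in L-GMP-derived cells, where 13.4% and 10.7% of all genes were. Against L-GMP 1 was upward and 5 downward there, beside 16.6% and 14.1% of all genes.

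The RefSeq promoter table (GRCm38.p6) held 3 of the 8 genes, each sequence running from 250 bases before to 50 after a start. All 3 are shown. Dsp and Pkp4 differed in opposite directions between GMP and L-GMP, while the Jup arrays overlapped. Capitals mark matches, on either strand, to any of 6 motifs searched: the TATA box spelled TATAAA, the box named by its letters CCAAT, the GC box spelled GGGCGG, the E-box spelled CACGTG, a Hox-Pbx motif spelled TGATTNAT and a Meis motif spelled TGACAG. The windows are chr13:38151044-38151343 on the plus strand for Dsp, chr11:100397741-100398040 on the minus strand for Jup, and chr2:59160600-59160899 and chr2:59161619-59161918 on the plus strand for starts 1 and 2 of Pkp4.
Dsp: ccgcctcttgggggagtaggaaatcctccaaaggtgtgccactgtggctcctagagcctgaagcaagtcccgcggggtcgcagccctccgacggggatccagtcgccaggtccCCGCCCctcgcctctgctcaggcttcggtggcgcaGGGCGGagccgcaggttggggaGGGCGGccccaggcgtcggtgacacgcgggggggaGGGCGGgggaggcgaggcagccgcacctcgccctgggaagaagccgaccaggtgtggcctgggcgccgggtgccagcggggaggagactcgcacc
Jup: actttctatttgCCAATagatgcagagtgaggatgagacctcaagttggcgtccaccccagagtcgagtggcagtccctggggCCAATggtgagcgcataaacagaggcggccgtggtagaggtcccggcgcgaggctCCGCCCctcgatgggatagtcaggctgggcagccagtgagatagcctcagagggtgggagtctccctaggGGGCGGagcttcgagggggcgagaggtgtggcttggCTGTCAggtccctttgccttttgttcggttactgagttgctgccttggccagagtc
Pkp4 start 1: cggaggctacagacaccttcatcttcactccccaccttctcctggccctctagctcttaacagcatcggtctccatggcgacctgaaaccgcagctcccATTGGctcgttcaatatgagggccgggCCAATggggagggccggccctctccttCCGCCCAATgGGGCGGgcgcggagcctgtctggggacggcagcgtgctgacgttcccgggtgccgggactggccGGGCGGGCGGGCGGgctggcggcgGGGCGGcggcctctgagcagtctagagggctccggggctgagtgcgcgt
Pkp4 start 2: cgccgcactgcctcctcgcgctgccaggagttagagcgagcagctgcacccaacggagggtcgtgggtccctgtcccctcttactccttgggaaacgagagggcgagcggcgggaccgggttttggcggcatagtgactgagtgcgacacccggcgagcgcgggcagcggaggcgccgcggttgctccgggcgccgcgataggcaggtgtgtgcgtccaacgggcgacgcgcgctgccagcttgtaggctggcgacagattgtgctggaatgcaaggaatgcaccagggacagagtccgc

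The Dsp promoter was 73% G and C, higher than 94.3% of the 32851 promoters in the table, whose median was 52.7%. It held 27 CpG against a median of 7, and 4 GC boxes were its only matches. At least 1 GC box was found in 35.7% of all promoters. The Jup promoter was 60.7% G and C with 14 CpG, and held 2 CCAAT boxes, 2 GC boxes and 1 Meis match ending 1 base before the start. Of all promoters 37.4% held a CCAAT box and 19.2% a Meis match. Start 1 of Pkp4 was 69.3% G and C with 27 CpG, 3 CCAAT boxes and 6 GC boxes, of which 3 overlap each other and 1 overlaps a CCAAT box. Start 2, at 68% G and C with 34 CpG, held none of the 6 motifs. No TATA box, E-box or Hox-Pbx match lay in these 4 windows. Such matches were in 13.6%, 7.15% and 3.22% of all promoters. GC-rich windows with GC boxes were thus shared by Dsp, Jup and start 1 of Pkp4, whose signals ran differently. The matches are letters only and were not tested as binding sites.

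Dsp, which ties the junction to intermediate filaments, was high in L-GMP and dim in both other groups. Its brightest probe set read 101, 79.2 and 85.2 in GMP, 3963, 3409 and 3186 in L-GMP, and 51.0, 28.3 and 17.4 in L-GMP-derived cells. All 3 L-GMP arrays lay far above the other 6, and all 3 L-GMP-derived arrays lay below all 3 GMP arrays and below the floor. The log2 difference of L-GMP from GMP was 5.32 ± 0.13 (SE), 39.8-fold, with group means of 3519 ± 400 and 88.5 ± 11.3 (SD, n = 3). L-GMP-derived cells, at 32.2 ± 17.2 (SD, n = 3), were at least 56.1-fold lower than L-GMP and at least 1.41-fold lower than GMP. The last value depends on the floor, being -1.36 in log2 with the floor at 28.1 and 0 with it at 111, against -0.50 here. Dsp passed the filter only through its L-GMP arrays, since every GMP array was under 111.

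The other Dsp probe sets differed in what they registered. The second, whose design is marked as able to bind more than 1 transcript, read 20.8, 13.9 and 17.5 in GMP, 1383, 1001 and 1002 in L-GMP, and 16.8, 9.16 and 5.04 in L-GMP-derived cells. It therefore showed the same high group, at least 17.9-fold above each of the others, whose arrays were all under the floor. The third read between 30.9 and 58.2 on all 9 arrays, under the floor everywhere, with L-GMP at 41.5 ± 9.81 inside the GMP spread of 47.0 ± 13.8 (SD, n = 3). It showed none of the L-GMP signal that the others registered.

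**Figure D1:**
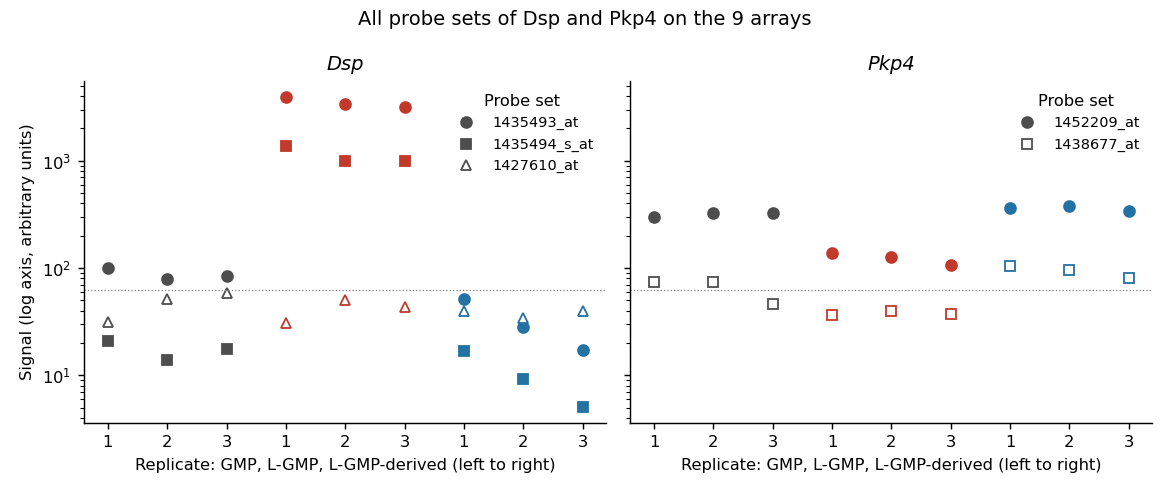
Signal of every Dsp and Pkp4 probe set on each of the 9 arrays (log axis, arrays by group), with open symbols for probe sets below the filter. The 3 L-GMP arrays stand apart on 2 of the 3 Dsp probe sets, and both Pkp4 probe sets are lowest in L-GMP.

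Jup, which links the desmosomal cadherins to desmoplakin and also joins adherens junctions as gamma-catenin, was level across the groups. Its 1 probe set, able to bind more than 1 transcript, read 296, 301 and 374 in GMP, 309, 318 and 316 in L-GMP, and 318, 224 and 283 in L-GMP-derived cells. The groups overlapped in each comparison, and the log2 difference of L-GMP from GMP was -0.03 ± 0.15 (SE). Cells derived from L-GMP differed by -0.24 ± 0.15 from GMP and by -0.21 ± 0.15 from L-GMP (log2, SE).

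Pkp1, a plakophilin of stratified epithelia, likewise overlapped between groups. It read 1253, 1453 and 1351 in GMP, 1222, 1343 and 1599 in L-GMP, and 1351, 1026 and 1098 in L-GMP-derived cells. The log2 difference of L-GMP from GMP was 0.03 ± 0.14, and that of L-GMP-derived cells was -0.23 ± 0.14 from GMP and -0.26 ± 0.14 from L-GMP (SE).

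Pkp2, the plakophilin of simple epithelia and heart, was dim. The probe set that passed the filter read 129.9, 102.0 and 157 in GMP, 81.8, 85.2 and 103 in L-GMP, and 114, 123 and 147 in L-GMP-derived cells. L-GMP overlapped GMP and lay below L-GMP-derived cells without overlap, by 0.50 ± 0.19 in log2 (SE), a difference that did not pass the threshold used for all genes. Its other 3 probe sets stayed between 15.6 and 68.8 and below the filter.

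Pkp4, a plakophilin relative found at desmosomes and adherens junctions, was lowest in L-GMP, the opposite of Dsp. It read 301.2, 325 and 324 in GMP, 138, 127 and 107 in L-GMP, and 364, 381 and 338 in L-GMP-derived cells. No array of one group overlapped another group. The log2 difference of L-GMP from GMP was -1.36 ± 0.12 (SE), 2.57-fold lower, with means of 124 ± 15.6 and 317 ± 13.3 (SD, n = 3). L-GMP-derived cells were 1.55 ± 0.12 above L-GMP (2.93-fold) and 0.19 ± 0.12 above GMP (log2, SE). The second Pkp4 probe set, below the filter, had the same order of group means, 64.9 ± 16.1 in GMP, 37.9 ± 1.55 in L-GMP and 93.2 ± 12.2 in L-GMP-derived cells (SD, n = 3).

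**Figure D2:**
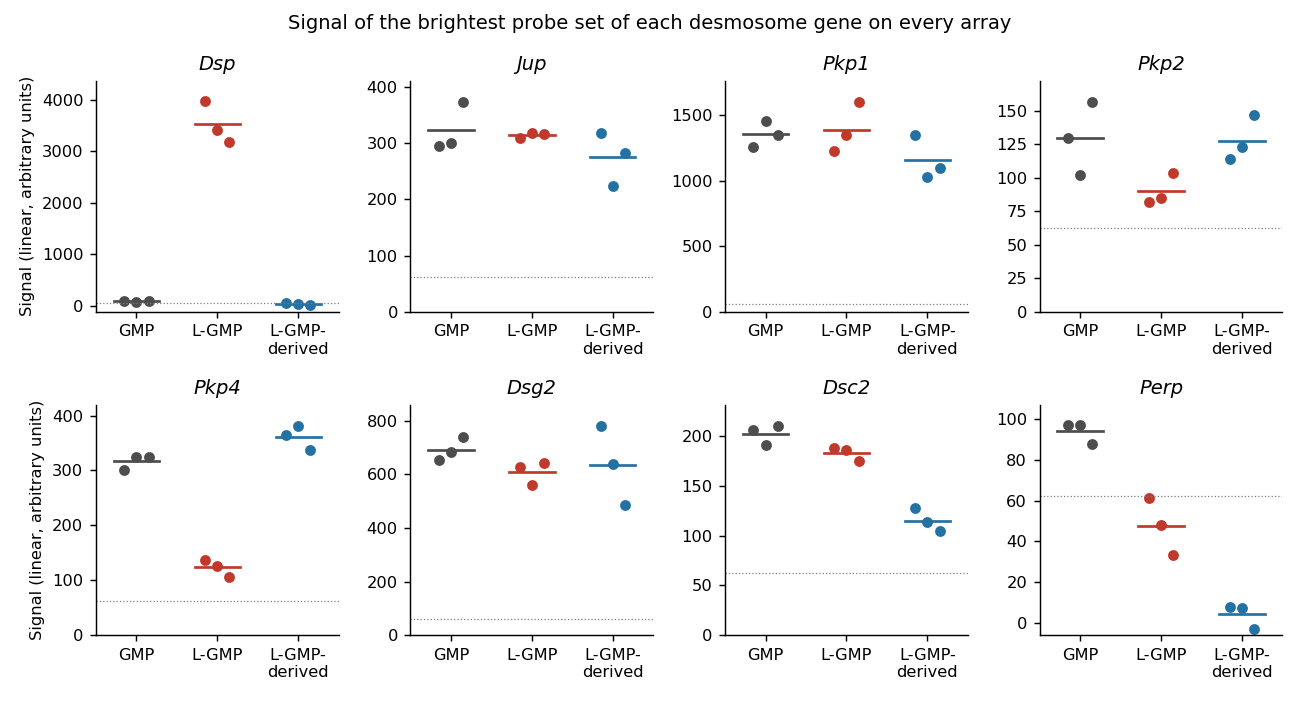
Signal of the brightest probe set of each of the 8 genes on the 9 arrays (1 panel a gene, linear axes of different ranges), with bars at group means and a dotted line at the floor of 62.4. Dsp is high only in the 3 L-GMP arrays, Pkp4 is lowest there, and Jup and Pkp1 overlap between groups.

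The cadherins did not share the Dsp pattern. Dsg2, the desmoglein of simple epithelia, read 654, 682 and 741 in GMP, 626, 560.2 and 642 in L-GMP, and 781, 638 and 487 in L-GMP-derived cells on its brightest probe set, which can bind more than 1 transcript. L-GMP lay just below GMP without overlap, with a log2 difference of -0.19 ± 0.16 (SE) that did not pass the threshold. L-GMP-derived cells spanned both groups and differed from GMP by -0.15 ± 0.16 (log2, SE). A second probe set read 269.7, 283 and 236 in GMP, 235, 258 and 304 in L-GMP, and 234, 165 and 205 in L-GMP-derived cells. It disagreed with the first on the derived cells, which were -0.41 ± 0.16 from L-GMP against 0.04 ± 0.16 on the first (log2, SE). The remaining 4 Dsg2 probe sets stayed below the filter. On 1 of them GMP read 94.4, 75.4 and 92.5, above L-GMP at 44.5, 64.7 and 54.7 and L-GMP-derived cells at 47.9, 46.7 and 51.2. Another, under the floor on all arrays, also had GMP above both other groups. It read 55.6, 57.3 and 56.6 in GMP, 44.5, 36.5 and 33.6 in L-GMP, and 44.1, 43.2 and 40.6 in L-GMP-derived cells.

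Dsc2, its desmocollin partner, was lowest in L-GMP-derived cells. It read 205, 191 and 210.0 in GMP, 188, 186 and 174 in L-GMP, and 127, 113 and 104 in L-GMP-derived cells. The derived arrays lay below all 6 others, with log2 differences of -0.82 ± 0.12 (SE) from GMP (1.76-fold) and -0.67 ± 0.12 from L-GMP (1.59-fold). L-GMP was -0.14 ± 0.12 from GMP, without overlap and not past the threshold. A second Dsc2 probe set, at 1.32 to 18.1, registered no signal above the floor.

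Perp, a membrane protein of desmosomes, did not pass the filter and was not compared in the fit. Its probe set read 97.0, 97.3 and 87.6 in GMP, 61.5, 48.1 and 33.3 in L-GMP, and 8.01, 7.32 and -2.97 in L-GMP-derived cells. The 3 groups did not overlap and stood in that order, with L-GMP and L-GMP-derived arrays all under the floor. No fold is given, since both are bounded by it.

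The 7 genes with a probe set in the fit, each by its brightest, were counted at an adjusted p under 0.05. Between L-GMP and GMP 1 gene (Dsp) was past the threshold upward and 1 (Pkp4) downward, where 13.1% and 12.8% of all 8965 genes tested were. Between L-GMP-derived cells and GMP no gene was past it upward and 2 (Dsp and Dsc2) were downward, where 13.4% and 10.7% of all genes were. Between L-GMP-derived cells and L-GMP 1 (Pkp4) was past it upward and 2 (Dsp and Dsc2) downward, where 16.6% and 14.1% of all genes were. The genes were chosen with these contrasts known, so nothing is read from the counts. The median log2 difference over the 7 genes was -0.14, -0.23 and -0.21 in the 3 comparisons, beside -0.01, 0.00 and -0.00 over all genes. Each pair of comparisons shares 1 group of arrays.

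**Figure D3:**
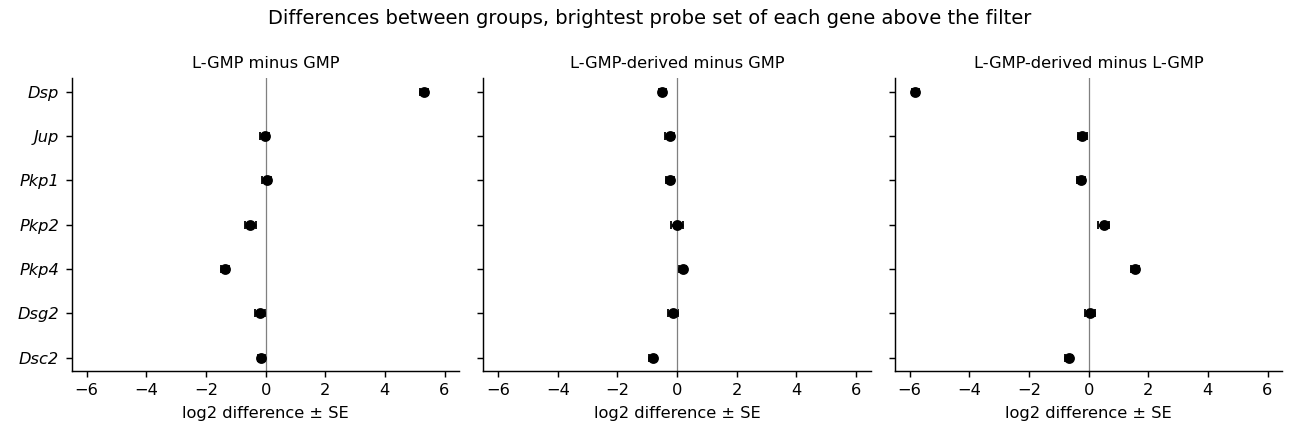
Log2 difference (horizontal axis) with SE bars of the 7 genes in the fit, by comparison, each by its brightest probe set. Dsp lies at 5.32 for L-GMP against GMP and at -5.81 for L-GMP-derived cells against L-GMP, Pkp4 at -1.36 and 1.55, and the other genes lie between -0.82 and 0.50.

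The genes nearest to Dsp in profile were found by the root mean square difference of log2 signals over the 9 arrays, each gene centred on its own mean, among 8958 other genes. They were Penk (0.39), Prg2 (0.76), Prg3 (0.80), Tctex1d1 (1.08), Olfm1 (1.13) and Vcam1 (1.22), while Dsp itself varied by 2.63 around its mean on this measure. Penk, the enkephalin precursor, was under the floor on all GMP arrays and read 3328, 1451 and 2106 in L-GMP and 66.4, 30.9 and 19.2 in L-GMP-derived cells. Prg2, the major basic protein of eosinophil granules, read 410.2, 156 and 98.7 in GMP, 2600.1, 2984 and 2425 in L-GMP, and 30.6, 17.4 and 18.1 in L-GMP-derived cells. Vcam1, an adhesion molecule also made by macrophages, ran from 587 to 676 in GMP, from 2894 to 4026 in L-GMP and from 117 to 196 in L-GMP-derived cells. All of these share with Dsp a high L-GMP group, and the likeness rests on that 1 contrast.

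Nearest to Pkp4 were Tspan4, a tetraspanin (0.14), Bzw2 (0.15) and Fastkd2, a mitochondrial RNA-binding protein (0.16), where Pkp4 itself varied by 0.70. Tspan4 averaged 792 in GMP, 303 in L-GMP and 932 in L-GMP-derived cells, and Bzw2 averaged 1025, 453 and 1178. Both therefore had the order of Pkp4, whereas Fastkd2, at 1111, 447 and 1052, had its GMP mean above the derived one. Nearest to Dsc2 were 3110009E18Rik (0.09), Gm13889 and Dhx40 (0.11 each), and nearest to Pkp2 were Ttl (0.12), Cspg4 (0.13) and Slc26a6 (0.14). Jup (nearest Elapor1, 0.05), Pkp1 (Chrm3, 0.06) and Dsg2 (Ubp1, 0.06) varied by only 0.19 around their means, so nearness there says little beyond a flat profile.

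**Figure D4:**
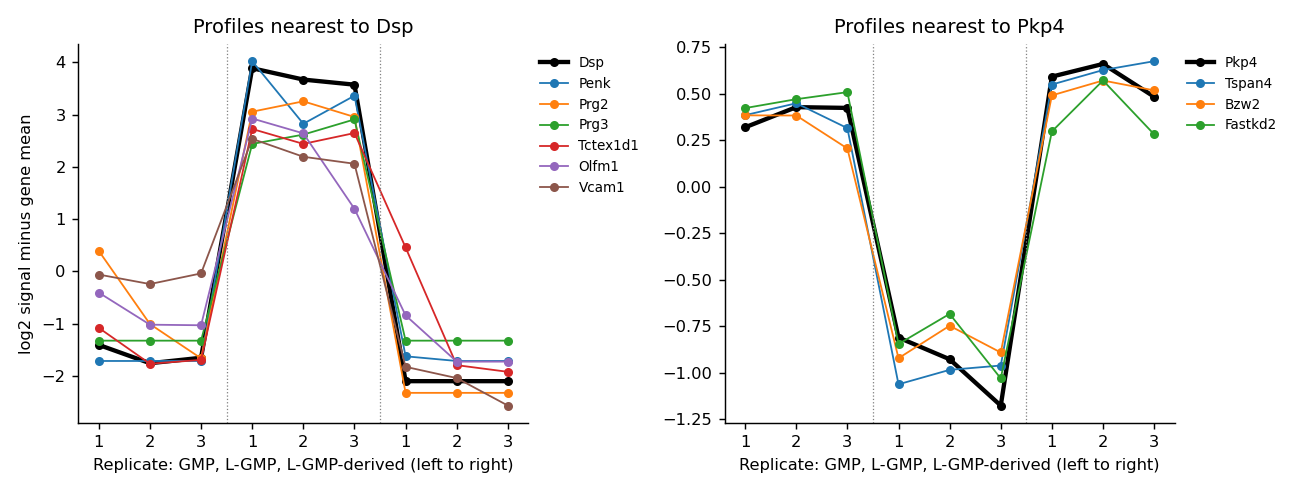
Log2 signal minus the gene's own mean on each of the 9 arrays, for Dsp with its 6 nearest genes and Pkp4 with its 3 nearest. The Dsp set is highest in the 3 L-GMP arrays and the Pkp4 set lowest there.

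Markers of other cells were examined because the sort could hold them. Of 12 epithelial markers 8 passed the filter. The brightest were Grhl2, Cldn3 and Krt18, each averaging above the filter signal of 111 in both GMP and L-GMP. No epithelial marker passed the threshold between these groups. Epcam and Cldn7 were under the floor on all 9 arrays. The epithelial sum of signals was 2192 to 2334 in GMP, 2006 to 2387 in L-GMP and 1724 to 1742 in L-GMP-derived cells. Its L-GMP range thus contained that of GMP. Of 6 keratinocyte markers 1 passed, and their sum was lower in L-GMP (282 to 421) than in GMP (606 to 672). No keratinocyte marker passed the threshold, and the lower sum holds Sfn, which averaged -136 in L-GMP and 54.1 in GMP, both under the floor. Krt5, Krt14 and Trp63 averaged between 53.6 and 91.8 in every group. Of 9 endothelial markers 4 passed the filter, and Pecam1, Tie1, Emcn and Vwf were under the floor on all arrays. Tek, which averaged 140 in GMP and 96.9 in L-GMP, had a log2 difference of -0.54 (limma, adjusted p = 0.0238). Endothelial sums overlapped between L-GMP (602 to 718) and GMP (659 to 756). Megakaryocyte sums, over 5 of 6 markers with a probe set, overlapped too, at 729 to 996 in L-GMP and 736 to 909 in GMP, although Gp1bb, a platelet receptor subunit, had a log2 difference of 1.71 in L-GMP against GMP (adjusted p = 0.00458) and of -1.08 in L-GMP-derived cells against L-GMP (adjusted p = 0.0377), with 1 GMP array set to the floor.

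The summed level was highest in L-GMP, without overlap with the other groups, in 3 lists. Single markers past the threshold upward in L-GMP and downward from there to L-GMP-derived cells were also in other lists, namely Gp1bb (above) and the GMP marker Fcgr3, an Fc receptor (log2 differences 0.62 and -0.67, adjusted p = 0.00567 and 0.00331). The stromal sum over 8 markers was 1256 to 1468 in GMP, 1745 to 2324 in L-GMP and 868 to 980.3 in L-GMP-derived cells. Pdgfrb was the 1 stromal marker past the threshold in L-GMP, at 1.85-fold (adjusted p = 0.00948), and Col1a1, Col1a2 and Col3a1 stayed below the filter. A list of eosinophil and one of macrophage markers were added after the values were seen. They hold Prg2, Prg3 and Vcam1, which are among the 6 genes nearest to Dsp in profile. Their high sums in L-GMP follow in part from that choice and are a description only. The eosinophil sum, over 7 of 9 genes with a probe set, was 1434 to 1529 in GMP, 5686 to 6646 in L-GMP and 539 to 992 in L-GMP-derived cells. Prg2, Prg3 and Siglecf were the 3 that rose in L-GMP, Epx was below the filter, and Ccr3 was under the floor on all arrays. Il5ra and Alox15 passed the filter but not the threshold, averaging 105 and 423 in GMP and 118 and 411 in L-GMP. The macrophage sum, over 8 of 9, was 1527 to 1685 in GMP, 6355 to 7935 in L-GMP and 1017 to 2133 in L-GMP-derived cells, with Vcam1, Adgre1 and C1qb rising in L-GMP and Mrc1 under the floor on all arrays. The other macrophage markers, C1qa, C1qc, Cd163 and Spic, stayed below the filter and did not rise. They averaged 91.4, 87.8, 67.5 and 51.5 in GMP and 76.3, 74.9, 8.60 and 47.6 in L-GMP. Whether cells of any of these lists contributed to the Dsp signal was not tested.

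Other genes around the junction came from 8 lists of 110 genes, of which 98 had a probe set and 63 passed the filter. Of the 63, 5 rose and 4 fell in L-GMP against GMP, 8 rose and 8 fell in L-GMP-derived cells against GMP, and 5 rose and 11 fell in L-GMP-derived cells against L-GMP. Of all genes tested 13.1% rose and 12.8% fell, 13.4% rose and 10.7% fell, and 16.6% rose and 14.1% fell in these comparisons, and the counts of single lists below have the same background. The median log2 differences of the 63 were 0.03, -0.07 and -0.12, beside -0.01, 0.00 and -0.00 over all genes. Without the L-GMP-derived array of replicate 1 the first count was 15 instead of 9 in all. No count is read as particular to a list. Of the 8 other desmosome genes 3 had a probe set and only Pkp3, a plakophilin, passed the filter. It averaged 240 ± 33.6 in GMP, 266 ± 24.7 in L-GMP and 266 ± 34.9 in L-GMP-derived cells (SD, n = 3), and passed the threshold in no comparison.

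No tested plakin relative of Dsp had a difference near its size. Of 6 plakins 5 were tested, and none passed the threshold between L-GMP and GMP. Plec, the plakin plectin, rose in L-GMP-derived cells over GMP by 1.53-fold (limma, adjusted p = 0.0237), a call lost without any 1 GMP array (adjusted p from 0.0666 to 0.0714). Dst, dystonin, averaged 3358 in GMP, 3954 in L-GMP and 3124 in L-GMP-derived cells, the order of Dsp at a far smaller size. Evpl and Macf1 had that order too, with close GMP and L-GMP means, while Plec and Ppl did not. From L-GMP to L-GMP-derived cells Dst fell by 0.35 in log2 (adjusted p = 0.0272). That call was lost in 8 of 17 alternatives, among them without L-GMP replicate 2 (0.0944).

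The filaments that desmoplakin holds were represented by 4 tested genes of 12. None passed the threshold between L-GMP and GMP, and 3 fell in L-GMP-derived cells against GMP. Krt18, the keratin of simple epithelia, averaged 232 ± 10.2 in GMP, 224 ± 21.6 in L-GMP and 33.4 ± 10.99 in L-GMP-derived cells (SD, n = 3). It fell at least 3.71-fold against GMP (adjusted p = 2.31e-06) and at least 3.58-fold against L-GMP (adjusted p = 3.35e-06). Krt8, its partner keratin, fell with log2 differences of -0.68 and -0.78 (adjusted p = 0.0123 and 0.00492), calls lost with the floor at 111 (0.326 and 0.138). Lmna, the nuclear lamin A, fell by 0.34 in log2 against GMP (adjusted p = 0.0388), and lost the call in 7 of 17 alternatives, among them without GMP replicate 2 (0.149).

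**Figure D5:**
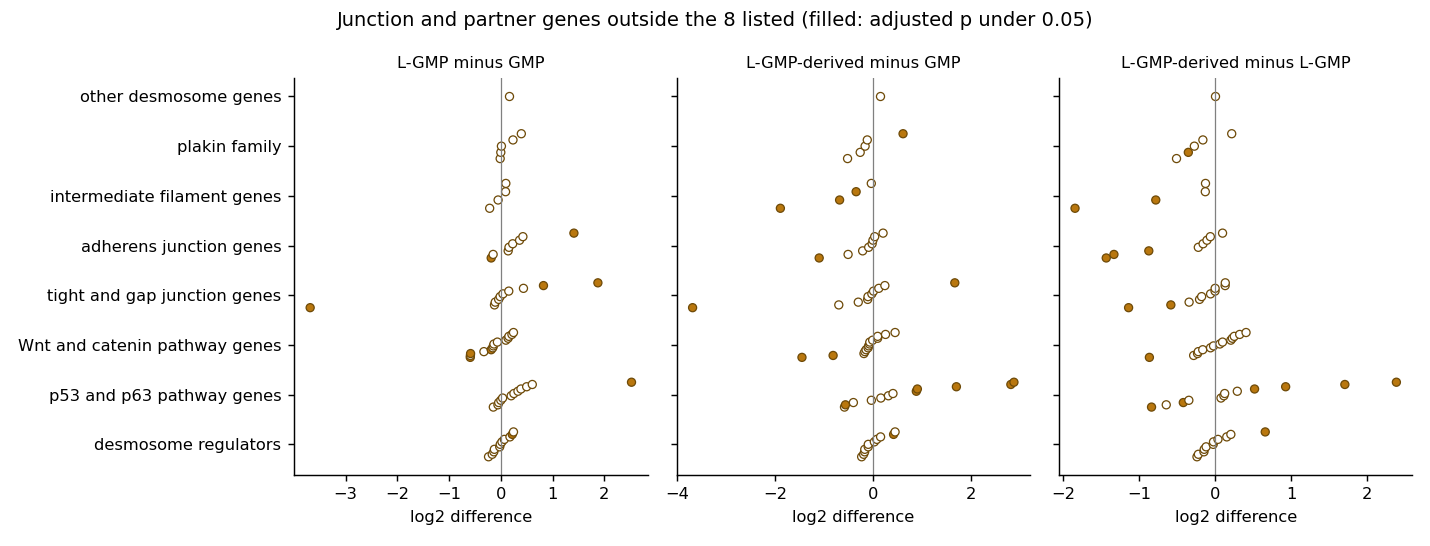
Log2 difference of each tested gene of the 8 lists in the 3 comparisons, 1 row a list, with filled symbols for adjusted p under 0.05. Gja1 lies lowest at -3.69 in both comparisons with GMP, and Cdkn1a highest at 2.88 in L-GMP-derived cells against GMP.

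Of the 16 adherens junction genes 8 were tested, and 1 rose and 1 fell in L-GMP. Vcl, vinculin, which links cadherin complexes to actin, averaged 426 ± 61.9 in GMP, 1176 ± 447 in L-GMP and 421 ± 60.2 in L-GMP-derived cells (SD, n = 3). It rose 2.66-fold in L-GMP (adjusted p = 0.00138) and fell 2.69-fold from there to L-GMP-derived cells (adjusted p = 0.00112). Ctnnb1, beta-catenin, fell by 0.19 in log2 in L-GMP (adjusted p = 0.0222), a call lost without L-GMP replicate 3 (0.0797), GMP replicate 1 (0.0641) or GMP replicate 3 (0.0957). Cdh1, E-cadherin, averaged 135 ± 24.4, 164 ± 54.4 and 4.05 ± 15.8 in the 3 groups (SD, n = 3). It fell in L-GMP-derived cells at least 2.14-fold against GMP (adjusted p = 0.00915) and at least 2.51-fold against L-GMP (adjusted p = 0.00253), both lost with the floor at 111 (0.381 and 0.0776). Pvr, a nectin-like adhesion receptor, fell 1.83-fold from L-GMP to L-GMP-derived cells (adjusted p = 0.00351).

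Of the 20 tight and gap junction genes 10 were tested, and 2 rose and 1 fell in L-GMP. Gja1, connexin 43, averaged 805 ± 70.9 in GMP and was under the floor on every L-GMP and L-GMP-derived array. It was at least 12.9-fold lower in each (adjusted p = 2.35e-08 and 2.82e-08). Tjp3, the scaffold ZO-3, rose by 1.88 in log2 in L-GMP (adjusted p = 1.18e-04) and by 1.67 in L-GMP-derived cells (adjusted p = 2.84e-04), with 2 of 3 GMP arrays set to the floor. Cldn15, a claudin, rose 1.77-fold in L-GMP (adjusted p = 7.27e-04) and fell back by 0.58 in log2 in L-GMP-derived cells (adjusted p = 0.00485). Gjb2, connexin 26, fell from L-GMP to L-GMP-derived cells by 1.14 in log2 (adjusted p = 0.0453), a call lost in 14 of 17 alternatives.

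The Wnt and catenin list, where Jup acts beside beta-catenin, had 14 of 22 genes tested. In L-GMP none rose and 3 fell: Ctnnb1 (above), Dvl1, which relays the Wnt signal, by 0.59 in log2 (adjusted p = 0.0204), and Ccnd1, cyclin D1, by 0.58 (adjusted p = 0.00936). The Dvl1 call was lost without either L-GMP replicate 2 or 3 or GMP replicate 2 or 3 (0.0700 to 0.0884). In L-GMP-derived cells against GMP Ccnd1 fell by 0.81 in log2 (adjusted p = 0.00164) and Bcl9, a beta-catenin coactivator, fell 2.73-fold (adjusted p = 7.06e-04). Bcl9 was also the 1 gene that fell against L-GMP, 1.82-fold (adjusted p = 0.0104).

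Perp is a p53 and p63 target, and 12 of 17 genes of that pathway were tested. In L-GMP 1 rose, Pmaip1 (the cell death protein Noxa), by 2.53 in log2 with 1 of 3 GMP arrays set to the floor (adjusted p = 5.92e-04). It averaged 105 in GMP, 553 in L-GMP and 674 in L-GMP-derived cells. In L-GMP-derived cells against GMP 5 rose and 1 fell. Cdkn1a, the cell cycle inhibitor p21, averaged 138 in GMP, 179 in L-GMP and 972 in L-GMP-derived cells, 7.37-fold over GMP (adjusted p = 2.06e-04) and 5.21-fold over L-GMP (adjusted p = 5.64e-04). Pmaip1 rose by 2.82, Zmat3 by at least 1.71 and Bbc3, the cell death protein Puma, by 0.91 in log2 over GMP (adjusted p = 3.29e-04, 8.00e-04 and 0.00229). The 1 that fell was Sesn1, by 0.56 in log2 (adjusted p = 0.00555), named after its values were seen. Against L-GMP 4 rose, among them Zmat3 at least 3.26-fold and Ccng1, cyclin G1, 1.90-fold (adjusted p = 6.35e-04 and 0.00233). The 2 that fell included Btg2, by 0.83 (adjusted p = 0.0436), a call lost in 10 of 17 alternatives. Perp itself was under the floor on every L-GMP and L-GMP-derived array. In the derived cells Cdkn1a, Pmaip1, Zmat3, Bbc3 and Ccng1 were above GMP, while Sesn1 was below it. A link of any of them to Perp was not tested.

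Of the 11 desmosome regulators all 11 were tested and 1 rose in each comparison. Rhoa, a small GTPase of the actin cytoskeleton, rose by 0.22 in log2 in L-GMP (adjusted p = 0.0116), a call lost without an intensity trend (0.0776). Prmt1, an arginine methyltransferase, rose in L-GMP-derived cells by 0.42 over GMP (adjusted p = 0.0117), lost without GMP replicate 3 (0.0607), and by 0.66 over L-GMP (adjusted p = 7.62e-04), as log2.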

How the data were processed

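Affymetrix arrays of 9 samples in 3 groups of 3 were analysed. The authors deposited 1 table of processed intensities, on a linear scale, for 22690 probe sets. MAS5 (version 5) was the tool, per the submitters' processing notes. The sources used here do not give its background, summary or scaling settings. Negative values numbered 1917 of 204210 (0.939%), down to -1890.55, which MAS5 does not itself produce, so how they were summarised is unknown. Trimmed means of the arrays lay within 4.02% of their mean, and no further scaling was applied. Detection calls were not used.

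Log2 was taken after raising signals under a floor of 62.4 (25th percentile of the table) to it. Probe sets over 111 (40th percentile) on at least 3 arrays were tested, without 64 control probe sets, leaving 14578. All 3 groups entered 1 limma fit (version 3.58.1, R 4.3.3) with an intensity trend, two-sided, with Benjamini-Hochberg adjustment over all tested probe sets and 6 residual degrees of freedom. Each gene stood for its tested probe set of highest mean log2 signal. The number of arrays limits the precision. The limma script was run on simulated data before use.

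Genes were named from the platform annotation, in which 20393 probe sets had 1 symbol, 691 several and 1606 none, and only those with 1 were used. The members and lists were chosen with earlier results of these data known. Of each list up to 4 genes with the largest difference past an adjusted p of 0.05 were named in each comparison, of each marker list the counts, the summed level and its brightest genes or those at the floor, and for profile likeness the 6 nearest genes to Dsp and up to 3 for the others. Genes named beyond this were chosen after their values were seen. The alternatives were quantile normalization, median scaling, floors at the 10th and 40th percentiles, no filter, no intensity trend and only the groups compared. Others were no probe sets that can bind several transcripts, a replicate block and leaving out each array. The counts of list genes were also taken from the mean over the tested probe sets of each gene.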

Additional observations from a re-analysis of the deposited data

How the results depend on the processing

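Of 465 alternative values 14 moved, counts by over 1.5 times and differences by more than the replicate SD, and no difference past the threshold changed sign. Differences not past it did change sign in 16 values, 6 of Dsg2, 6 of Pkp2, 3 of Pkp1 and 1 of Jup, where the reported differences were at most 0.19 in size. The replicate block gave 1916 called probe sets for L-GMP against GMP in place of 3777, and 1750 for L-GMP-derived cells against GMP in place of 3551. It gave 6 list genes in place of 9 in the first comparison, and was the 1 alternative in which Ccnd1 lost its call there (adjusted p = 0.119). The replicate numbers gave no sign of pairing, since the correlation of deviations of same-numbered arrays ran from -0.309 to 0.170. Without 1 array at a time, the counts ran from 2475 (without GMP replicate 3) to 4904 (without L-GMP-derived replicate 1) and from 2306 to 4456 (the same arrays), and the list genes from 7 to 15. Dsp in L-GMP against GMP moved from 5.32 to 4.97 in log2 with the floor at 111. In L-GMP-derived cells Dsp moved from -0.50 to -1.36 against GMP with the floor at 28.1 and to 0 at 111, and from -5.81 to -6.67 and -4.97 against L-GMP. Of 309 values for the other members 4 moved by more than the replicate SD. With the floor at 111, Pkp2 moved to -0.24 in L-GMP against GMP and to 0.19 in derived cells against L-GMP. Without probe sets that can bind several transcripts, Dsg2 in derived cells moved to -0.40 against GMP and -0.41 against L-GMP. Of 41 calls of list genes 25 held in all 17 alternatives and 16 were lost in some. Signals near the floor limit what can be measured of Dsp outside L-GMP, of Perp and of most Pkp2 probe sets.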

Other observations

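The genes that neighbour Dsp in the order of the GRCm38.p6 annotation, chosen after the values were seen, did not share its range. Riok1, directly before Dsp, averaged 686 in GMP, 750 in L-GMP and 723 in L-GMP-derived cells (L-GMP against GMP, limma adjusted p = 0.521). Snrnp48, directly after it, averaged 2412, 2027 and 2001 (adjusted p = 0.366). Rreb1, a zinc finger transcription factor 4 genes before Dsp, was highest in L-GMP and lowest in L-GMP-derived cells, at 2704, 3301 and 2029. Its log2 difference was 0.29 in L-GMP against GMP (adjusted p = 0.0135) and -0.70 in L-GMP-derived cells against L-GMP (adjusted p = 5.97e-05). Ssr1, 3 genes before, had the opposite order, falling by 0.24 in L-GMP against GMP (adjusted p = 0.0115). Bmp6, 3 genes after, was below the filter, and Txndc5, 4 genes after, had an adjusted p of 0.717.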
